A study of Homo sapiens with 44 samples.

Results

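Alternative splicing programmes of muscle and of epithelium are set by small families of RNA-binding proteins, and 10 of these regulators were followed here through cardiac differentiation of human embryonic stem cells. The genes, chosen by name, are RBM20, RBM24, RBFOX1, RBFOX2, CELF2, MBNL1, MBNL2, ESRP1, ESRP2 and PTBP1. They are 10 of the 60499 gene identifiers in the deposited tables, and each was found once. All 10 had more than 3 counts in each of the 44 libraries and passed the filter on low counts.

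All cells were of the established line H1, derived from a human embryo, and each library is RNA of 1 culture well, so the data describe a single line. Pluripotent wells were coated with the laminin LN-521, and every other well with LN-521 together with LN-221. Day 0 cells were still in Nutristem, a stem cell medium. Day 1 and day 3 cells were in RPMI with insulin-free B27 and CHIR99021, which inhibits the kinase GSK3 and so activates Wnt signalling, and day 5 cells had IWP2, an inhibitor of Wnt production, instead. Day 7 and day 9 cells were in insulin-free B27 medium alone, and cells of days 11, 14, 20, 30 and 90 in a complete B-27 supplement. Days 5, 7, 9 and 11 had 5 wells, the remaining 8 groups had 3, and the labels name no selection of cardiomyocytes.

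A splicing regulator binds a short motif in a pre-mRNA and favours or blocks the inclusion of nearby exons, often in opposite ways on either side of the exon. RBM20 and RBM24 act in striated muscle, where RBM20 governs the splicing of titin and of calcium-handling genes. RBFOX, MBNL (muscleblind) and CELF proteins shape the change from fetal to adult isoforms in heart and skeletal muscle, with MBNL and CELF opposing each other on many exons. ESRP1 and ESRP2 maintain epithelial isoforms and are lost in epithelial-mesenchymal transition, the change by which mesoderm forms. PTBP1 is a broadly expressed repressor of muscle and neural exons. The counts here are per gene, so they measure the RNA of the regulators and not the splicing of their targets.

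RBM20 (ENSG00000203867, chr10:110644397-110839469, plus strand) and RBM24 (ENSG00000112183, chr6:17281346-17293875, plus strand) had the steepest rises of the set and moved together. Their RefSeq promoter windows are shown because of that joint rise. Each window (GRCh38.p14, plus strand) runs from 250 bases before the start annotated by RefSeq to 30 after it. The windows are chr10:110644086-110644365 for RBM20 and chr6:17281814-17282093 for RBM24, and the capitals mark motif matches. RefSeq and the gene coordinates above place these starts differently. The RBM20 window ends before the gene start given above, and the RBM24 window lies wholly inside the gene span given above.
RBM20: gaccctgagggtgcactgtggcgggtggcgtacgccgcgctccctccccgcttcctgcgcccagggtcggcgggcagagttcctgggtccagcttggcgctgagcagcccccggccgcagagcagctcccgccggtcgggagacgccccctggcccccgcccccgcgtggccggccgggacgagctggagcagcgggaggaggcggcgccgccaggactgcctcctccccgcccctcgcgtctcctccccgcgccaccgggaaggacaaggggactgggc
RBM24: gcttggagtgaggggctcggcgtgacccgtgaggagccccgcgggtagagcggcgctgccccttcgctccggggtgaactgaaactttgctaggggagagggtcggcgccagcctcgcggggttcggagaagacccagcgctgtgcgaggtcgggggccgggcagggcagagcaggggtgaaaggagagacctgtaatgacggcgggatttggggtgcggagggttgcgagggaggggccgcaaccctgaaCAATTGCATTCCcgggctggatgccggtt

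Both windows are rich in G and C, at 77.9% for RBM20 and 67.9% for RBM24, against a median of 58.2% over 35116 windows of 280 bases. Both strands were searched for 8 motifs. These were the GATA factor site AGATAA, the T-box factor site GGTGTGA, the NKX2-5 site AAGTG, the TEAD factor site GGAATG, the MEIS factor site TGACAG, the E-box CANNTG, the MEF2 site and the SRF CArG box. The RBM20 window held 0 matches. RBM24 held 1 E-box and, directly after it with no shared base, 1 TEAD match, both just after the RefSeq start. An E-box occurs in 66.2% of all windows and the TEAD motif in 13.3%. A match is a description of letters only.

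The other members lie at chr16:5239802-7713338 (RBFOX1, ENSG00000078328, plus strand), chr22:35738736-36028425 (RBFOX2, ENSG00000100320, minus), chr10:10798397-11336675 (CELF2, ENSG00000048740, plus), chr3:152243828-152465780 (MBNL1, ENSG00000152601, plus), chr13:97221434-97394120 (MBNL2, ENSG00000139793, plus), chr8:94641074-94707466 (ESRP1, ENSG00000104413, plus), chr16:68229111-68238102 (ESRP2, ENSG00000103067, minus) and chr19:797075-812327 (PTBP1, ENSG00000011304, plus), all in GENCODE 29 on GRCh38. MBNL1 shares 1140 exonic bases with MBNL1-AS1 on the other strand, which averaged 1.70 CPM (counts scaled to library size) against 30.9 for MBNL1. ESRP2 shares 149 exonic bases with NFATC3 on the other strand, which averaged 44.3 CPM against 17.3 for ESRP2. Whether counting used the strand is not given in the sources used here, so ESRP2 in particular may hold reads of its neighbour.

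Total estimated counts ran from 6937136 to 33498022 per library, with a median of 26010763, and 3 counts correspond to 0.0896 to 0.432 CPM. Markers of cell identity were summed per library. Summed over 4 genes, pluripotency markers went from 6966 to 7012 CPM in pluripotent cells to 12.6 to 24.4 CPM at day 90, and 7 sarcomere genes summed to 35.3 to 60.1 CPM at day 0 and 17459 to 55889 at day 90. Other cell types were present: 8 endoderm and liver genes summed to 498 to 6209 CPM at day 9. At day 11, wells 1 and 2 stood apart, with 4578 and 8692 CPM of endoderm and liver markers against 165 to 181 in wells 5, 6 and 7, and with 7890 and 5192 CPM of sarcomere markers against 19359 to 20712. The results that rest on day 11 are therefore given with and without these wells. In 4 libraries of days 14, 20 and 30 the total was under 15000000 counts.

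**Figure D1:**
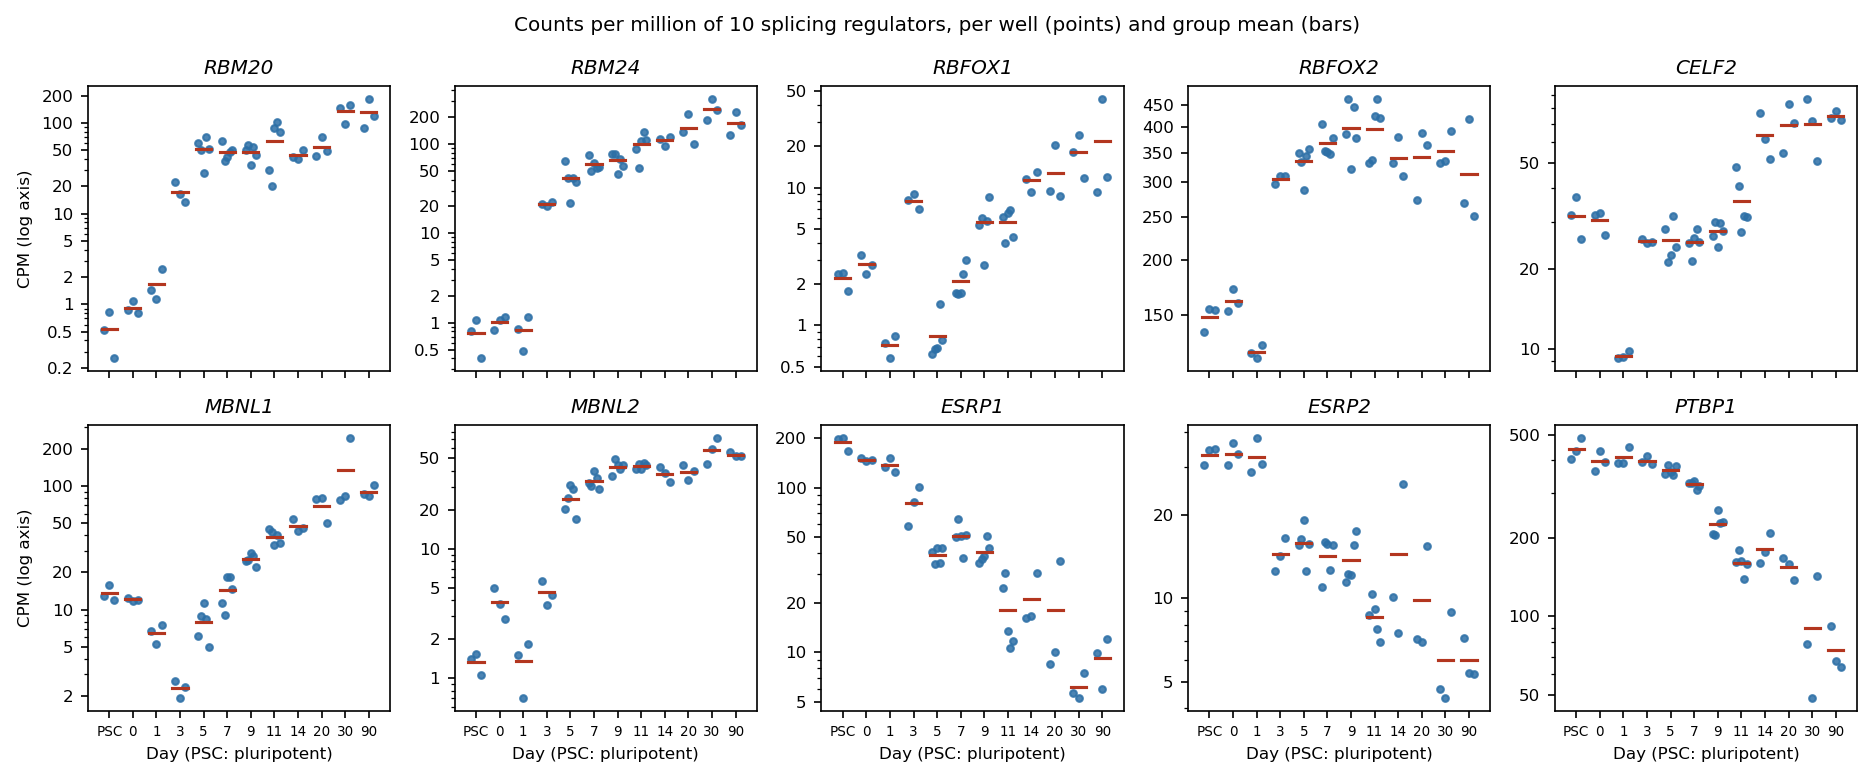
CPM of the 10 regulators (log axes, scaled per gene) in the 12 groups, with 1 point per well and the group mean as a bar. RBM20, RBM24 and MBNL2 left their low early levels between day 1 and day 5, RBFOX1 rose at day 3 and fell back at day 5, and ESRP1, ESRP2 and PTBP1 ended at their lower levels.

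A change was called with edgeR's quasi-likelihood test where the Benjamini-Hochberg adjusted p over 22955 genes was under 0.05 and the log2 fold change at least 1 in either direction. By day 9, 6 members had risen and 2 had fallen against day 0, while 31.7% of all genes tested were called. From day 9 to day 90, 5 rose and 3 fell (23.9% of all genes), and across the whole course from day 0 to day 90, 6 rose and 3 fell (40.0% of all genes). On TPM tested with limma, with either pseudocount, the first comparison gave 3 higher and 3 lower, the second 0 higher and 3 lower, and the third 4 higher and 3 lower. With a pseudocount of 1, 17.2%, 12.8% and 31.2% of all genes were called in these comparisons, and 29.3%, 25.8% and 47.2% with 0.1. In the second, 1038 genes rose and 4638 fell with a pseudocount of 0.1. TPM moved the median log2 change of all genes to -0.53 for day 90 against day 9, from -0.02 on counts, with a pseudocount of 0.1. On log2(TPM + 0.1) the changes from day 9 to day 90 were 0.81 for RBM20, 0.83 for RBM24, 0.58 for RBFOX1, 0.78 for CELF2 and 1.15 for MBNL1, none of them called, so the late rises below hold on scaled counts only. By day 9, RBFOX1, RBFOX2 and MBNL1 were not called on TPM and PTBP1 was called lower.

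Most of the called steps between neighbouring groups fell between day 1 and day 5, although day 90 against day 9 also called 8 members. From day 1 to day 3, 6 members rose and 2 fell (17.8% of all genes called), and from day 3 to day 5, 3 rose and 2 fell (10.1%). Earlier, 1 rose between pluripotent cells and day 0 (2.73% of all genes rose) and 3 fell from day 0 to day 1 (9.66% of all genes fell). Later steps called 1 riser each for day 7 (2.74% of all genes rose) and day 9 (1.02%) and 1 faller each for day 11 (1.24% of all genes fell) and day 30 (1.26%). By edgeR the steps to day 14 (0.697%), day 20 (0.0479%) and day 90 (5.09%) called 0 members, with 3, 0 and 0 members at an unadjusted p under 0.05, and DESeq2 also called 0 in each. On TPM the step to day 3 gave 5 higher and 0 lower, without MBNL1, MBNL2 and ESRP2, and the step to day 5 gave 1 higher, MBNL2, and 1 or 2 lower. Of all genes, 7.96% and 11.8% were called at day 3 with pseudocounts of 1 and 0.1, and 4.90% and 7.92% at day 5. The median log2 change of the members from day 1 to day 3 was 1.36, against 0.07 over all genes. Neighbouring steps share the wells of a day.

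**Figure D2:**
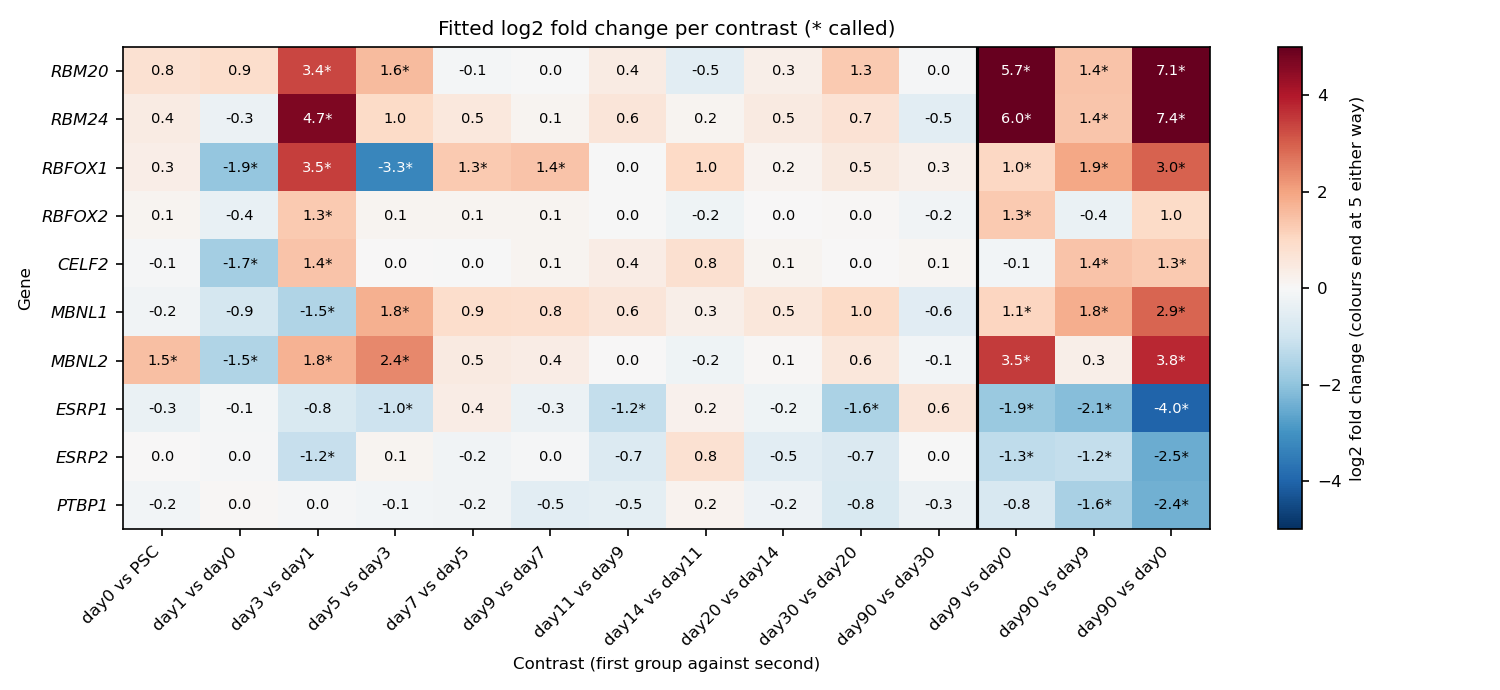
Fitted log2 fold changes of the 10 regulators in 11 steps between neighbouring groups and, right of the line, 3 long comparisons. Red is higher in the first-named group, blue lower, and an asterisk marks a called change. The step to day 3 holds 8 called changes.

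RBM20, the titin splicing factor of striated muscle, was near its floor in stem cells and among the higher members at the end. Its level was 0.873, 1.10 and 0.794 CPM in the day 0 wells, 1.45, 1.16 and 2.43 at day 1 and 22.2, 16.4 and 13.3 at day 3. No day 3 well overlapped a day 1 well, and the rise on the log2 scale was 3.36 (SE 0.44, adjusted p 1.76e-07). It rose again to 52.0 ± 15.5 CPM at day 5 (SD, n = 5), by 1.59 (SE 0.36, adjusted p 0.00161). The means then lay between 44.2 and 63.9 CPM from day 5 to day 20, and no step among them was called with all wells. This level depends on day 11 wells 1 and 2. Without them, day 11 against day 9 was 0.89 (adjusted p 0.0230) and day 14 against day 11 was -0.99 (adjusted p 0.0160), each under the fold threshold. In bulk wells, fewer cells of a type and less RNA per cell cannot be told apart.

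Day 30 wells held 146, 98.5 and 159 CPM of RBM20, and day 20 wells 43.3, 69.2 and 48.6. These ranges did not overlap, yet the log2 change of 1.33 (SE 0.39) missed the threshold with an adjusted p of 0.0518. It passed with 3 of the other count settings (0.0458 with RLE scaling, 0.0195 without a filter, 0.0346 with a stricter one), with DESeq2 (0.0170), and without the 4 shallow libraries (1.70, adjusted p 0.0442). It did not with a lane term (0.0988), only the groups compared (0.315) or log2(TPM + 0.1) (0.435). Day 90 wells held 88.3, 184 and 120 CPM, and the change from day 9 was 1.44 (SE 0.33, adjusted p 0.000626). Over the whole course the fold was 141 (log2 change 7.14, SE 0.52, adjusted p 2.42e-14).

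RBM24, a muscle splicing activator needed for sarcomere assembly in the heart, started as abruptly. It was at 0.842, 0.482 and 1.15 CPM in the day 1 wells and at 21.5, 20.0 and 22.2 at day 3, a rise of 4.68 on the log2 scale (SE 0.39, adjusted p 8.44e-12) and the largest single step of any member. Its means kept rising, from 41.3 ± 15.1 CPM at day 5 to 65.5 ± 13.5 at day 9 (SD, n = 5 each), 111 ± 13.3 at day 14 and 249 ± 66.9 at day 30 (SD, n = 3 each). None of these single steps was called. That from day 3 to day 5 was 0.96 (SE 0.29, adjusted p 0.0176), with ranges that overlapped. The rise from day 9 to day 90 was 1.40 (SE 0.27, adjusted p 7.11e-05). Day 90 wells held 127, 229 and 162 CPM, and the fold against day 0 was 167 (log2 change 7.39, SE 0.42, adjusted p 6.31e-17).

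Muscleblind proteins promote adult muscle isoforms, and MBNL1 and MBNL2 moved in opposite directions in the step from day 1 to day 3. MBNL1 had 12.4, 11.8 and 12.05 CPM in the day 0 wells, 6.74, 5.27 and 7.44 at day 1, and 2.66, 1.94 and 2.34 at day 3, its lowest level. The step to day 3 was a fall of 1.49 on the log2 scale (SE 0.32, adjusted p 0.000374), while that to day 1 was -0.90 (SE 0.30, adjusted p 0.0258). It then rose by 1.77 to day 5 (SE 0.30, adjusted p 2.90e-05). The next steps were 0.86 to day 7 and 0.83 to day 9, each with an adjusted p under 0.05 but under the fold threshold (0.0155 and 0.0433). From day 9, at 25.5 ± 2.55 CPM (SD, n = 5), it rose by 1.82 to 90.4 ± 10.7 at day 90 (SD, n = 3, SE 0.25, adjusted p 2.65e-07).

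MBNL1 at day 30 was uneven, with 76.7, 83.4 and 244 CPM. Well 3, the high one, also held 144 CPM of PTBP1 against 78.5 and 48.7 in the other wells and 4321 CPM of epithelial markers against 2829 and 1097. The part of these in the MBNL1 level was not tested. The step from day 20 was 0.95 (SE 0.29, adjusted p 0.0640), and without day 30 well 3 it was 0.26 (adjusted p 0.638).

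MBNL2 had its largest rises in the steps to day 3 and day 5. It was the only member called between pluripotent cells, at 1.41, 1.53 and 1.06 CPM, and day 0, at 4.93, 3.73 and 2.87 (log2 change 1.52, SE 0.25, adjusted p 0.000213). Neither this change nor that to day 1 was called on log2(TPM + 0.1) (1.25, adjusted p 0.372, and -0.94, adjusted p 0.211). After 1.52, 0.707 and 1.84 CPM at day 1 (-1.50, SE 0.25, adjusted p 2.07e-05) it rose by 1.75 to day 3 (SE 0.25, adjusted p 8.28e-07) and by 2.41 to day 5 (SE 0.22, adjusted p 2.45e-10). Day 5 wells ranged from 16.8 to 31.1 CPM with a median of 24.8, all above the 3.69 to 5.64 of day 3. The level reached 42.9 ± 4.62 CPM at day 9 (SD, n = 5), and day 90, at 52.9 ± 2.29 (SD, n = 3), was not called against it (log2 change 0.30, SE 0.19, adjusted p 0.224), although the ranges did not overlap. On TPM the value for day 90 against day 9 was -0.60, also not called (adjusted p 0.233).

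The ratio of the muscleblind RNAs changed direction along the course. As a log2 ratio of TPM + 0.1, which corrects for transcript length, MBNL1 over MBNL2 was 1.17 ± 0.25 at day 0 (SD, n = 3), -1.12 ± 0.18 at day 9 (SD, n = 5) and 0.64 ± 0.13 at day 90 (SD, n = 3). MBNL1 was thus 2.24 times MBNL2 at day 0, MBNL2 was 2.17 times MBNL1 at day 9, and MBNL1 was 1.55 times MBNL2 at day 90. Both differences, of -2.29 and 1.76, had a p of 0.0357 in a two-sided exact permutation test, the smallest that 5 against 3 wells allow, and an adjusted p of 0.0446 over 10 such tests. The lowest mean ratio was -1.91 ± 0.21 at day 5 (SD, n = 5).

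**Figure D3:**
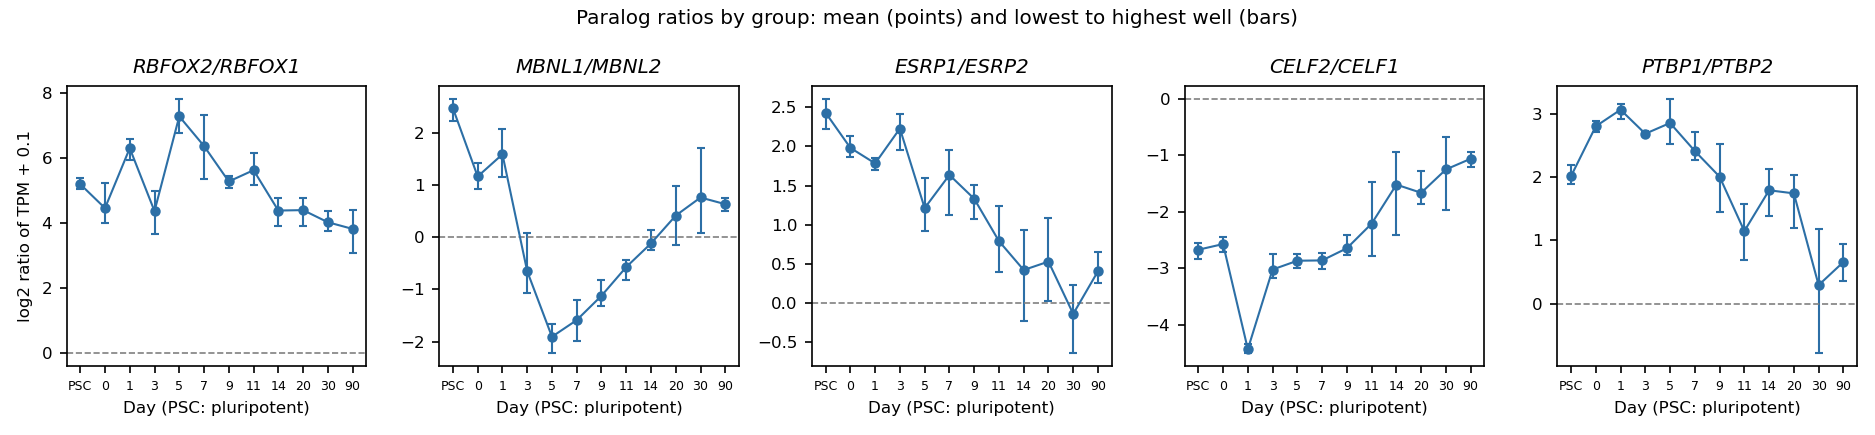
Log2 ratios of TPM + 0.1 for 5 pairs of related genes, with the mean per group as a point and the lowest and highest well as bars; the dashed line marks equal levels. MBNL1 over MBNL2 crossed below the line from day 0 to day 9 and back by day 90, ESRP1 over ESRP2 and PTBP1 over PTBP2 were lower at day 9 than at day 0 and lower again at day 90, and CELF2 over CELF1 rose after day 9.

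CELF2, which opposes muscleblind on many exons and is abundant in embryonic heart, dipped once and rose late. It was at 31.8, 32.4 and 26.8 CPM at day 0 and 9.23, 9.29 and 9.81 at day 1, a fall of 1.68 on the log2 scale (SE 0.20, adjusted p 3.31e-08), and returned to 25.9, 25.0 and 25.2 at day 3 (log2 change 1.42, SE 0.19, adjusted p 4.07e-07). The means then lay between 25.1 and 27.6 CPM up to day 9. At day 14 the wells held 76.6, 61.4 and 51.8 CPM, and the step from day 11 was 0.82 (SE 0.17, adjusted p 0.0220). With day 11 wells 1 and 2 left out this step was called (1.10, adjusted p 6.82e-05), along with 10.4% of all genes. Endoderm and liver markers were then at 165 to 181 CPM in the day 11 wells kept and at 2493 to 4057 in those of day 14, and their part was not tested. Those wells held 48.2 and 41.0 CPM, and wells 5, 6 and 7 held 27.4 to 31.4.

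Day 90 wells held 73.7, 77.9 and 72.5 CPM of CELF2, all above the 24.2 to 30.0 of day 9. That rise was 1.44 (SE 0.16, adjusted p 6.42e-09). Its broadly expressed paralog CELF1 stayed the more abundant by TPM, 6.26 times CELF2 at day 9 and 2.09 times at day 90. The log2 ratio of CELF2 to CELF1 differed by 1.58 between these days (exact permutation test, p 0.0357, adjusted p 0.0446). Between day 0 and day 9 it differed by -0.07 (exact permutation test, p 0.464).

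RBFOX proteins bind UGCAUG in introns, and RBFOX1 is the muscle and neural member while RBFOX2 is broadly expressed. RBFOX1 was high at day 3 between low days. It was at 3.22, 2.36 and 2.76 CPM at day 0, 0.741, 0.578 and 0.841 at day 1, and 8.14, 9.01 and 6.98 at day 3. At day 5 the wells ranged from 0.619 to 1.43 CPM with a median of 0.685, again below each day 3 well. The log2 changes were -1.94 to day 1 (SE 0.45, adjusted p 0.00141), 3.47 to day 3 (SE 0.46, adjusted p 2.17e-07) and -3.26 to day 5 (SE 0.38, adjusted p 4.07e-08). The 5 neural markers, summed, followed the same course up to day 5. They had 21.1 to 26.0 CPM at day 0, 6.91 to 7.20 at day 1, 36.1 to 71.8 at day 3 and 1.96 to 3.52 at day 5. However, NEUROD1 was at 3 counts or fewer in every library of days 0, 1 and 3. At day 90 the 5 markers summed to 1.67 to 5.38 CPM, while RBFOX1 had its highest group mean, 21.8 CPM. Of the 5, 1 was called higher at day 3 and 1 lower at day 5, where 17.8% and 10.1% of all genes were called. The part of these markers in the RBFOX1 level was not tested.

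RBFOX1 then rose by 1.32 to day 7 (SE 0.35, adjusted p 0.0145) and by 1.44 to day 9 (SE 0.32, adjusted p 0.00945), the latter with ranges that overlapped. Neither was called on log2(TPM + 0.1) (0.88, adjusted p 0.561, and 1.13, adjusted p 0.759), and the first was lost without day 5 well 1 (adjusted p 0.0516) or day 7 well 4 (adjusted p 0.0596). Day 9 wells held 2.73 to 8.49 CPM with a median of 5.78, which overlapped the day 0 wells. The change from day 0 to day 9 was 1.03 (SE 0.38, adjusted p 0.0233), and the call was lost on TPM and without day 0 well 2 (0.92, adjusted p 0.0876), day 0 well 3 (1.04, adjusted p 0.0563) or day 9 well 4 (0.83, adjusted p 0.0731). Day 90 wells held 9.23, 44.1 and 11.9 CPM. The change of 1.93 from day 9 (SE 0.35, adjusted p 2.57e-05) rested in part on the second of these, well 4, without which it was 0.91 (adjusted p 0.0234), under the fold threshold. Well 4 also held 55889 CPM of sarcomere markers against 17459 and 22446, and 403 CPM of smooth muscle and fibroblast markers against 1826 and 2786. The part of these in the RBFOX1 level was not tested.

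RBFOX2 was high throughout and, on scaled counts, changed once among the steps. The day 1 wells held 123, 120 and 128 CPM and the day 3 wells 297, 310 and 309, a rise of 1.30 (SE 0.16, adjusted p 5.43e-08). From then on every group mean lay between 305 and 399 CPM. Day 9 was above day 0 by 1.30 (SE 0.15, adjusted p 2.95e-09). Day 90 against day 0 was 0.95 (SE 0.16, adjusted p 3.75e-06), under the fold threshold, and passed it with RLE scaling (1.04), DESeq2 (1.04) and the stricter filter (1.06). On TPM this change was not called, with means of 26.1 ± 1.36 TPM at day 0 and 29.8 ± 16.4 at day 90 (SD, n = 3 each). On log2(TPM + 0.1) RBFOX2 was called lower from day 30 to day 90, along with 16.5% of all genes called. By TPM, RBFOX2 was 38.7 times RBFOX1 at day 9 and 14.1 times at day 90, a log2 difference of -1.46 (exact permutation test, p 0.0357, adjusted p 0.0446).

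ESRP1, the main epithelial splicing regulator, was highest in pluripotent cells, at 197, 199 and 168 CPM. The day 0 wells held 152, 144 and 147 CPM and the day 3 wells 58.2, 82.3 and 101, with no called step between them (day 3 against day 1 was -0.76, SE 0.35, adjusted p 0.101). It fell by 1.04 on the log2 scale from day 3 to 39.2 ± 4.19 CPM at day 5 (SD, n = 5, SE 0.31, adjusted p 0.0147). In the fits that each left out 1 of these 8 wells, this change ran from -1.21 to -0.83 and lost the call in 4 of them. It also lost the call with a lane term (-0.99), with only the groups compared (-0.996) and on log2(TPM + 0.1) (-1.30, adjusted p 0.0808). At day 9, 40.9 ± 6.41 CPM remained (SD, n = 5), and at day 90 the wells held 9.86, 5.98 and 11.99. The change was -1.85 from day 0 to day 9 (SE 0.31, adjusted p 4.10e-06), and -2.14 from day 9 to day 90 (SE 0.35, adjusted p 5.34e-06). Over the whole course day 0 was 15.9-fold above day 90. Of the 7 epithelial markers, 3 rose and 3 fell by day 9, where 31.7% of all genes were called. The fallers were the adhesion genes CDH1, CLDN6 and CLDN7, with log2 changes of -1.78 for CDH1 (SE 0.41, adjusted p 0.000396) and -1.54 for CLDN6 (SE 0.25, adjusted p 2.48e-06). The risers were the keratins KRT8, KRT18 and KRT19, KRT8 by 2.30 (SE 0.30, adjusted p 5.56e-08). The 7 markers summed to 1443 to 1531 CPM at day 0 and 2757 to 4116 at day 9, and the part of either in the ESRP1 level was not tested.

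ESRP2, its paralog with overlapping targets, fell in fewer steps. It was at 28.8, 38.0 and 30.6 CPM at day 1 and 12.6, 14.2 and 16.6 at day 3, a change of -1.17 on the log2 scale (SE 0.30, adjusted p 0.00278). The means from day 3 to day 9 then lay between 13.8 and 15.9 CPM. Day 14 well 6 held 25.9 CPM against 10.1 and 7.51 in the other wells of that day. Day 90 was 5.97 ± 1.08 CPM (SD, n = 3), a difference of -1.20 from day 9 on the log2 scale (SE 0.29, adjusted p 0.000819). ESRP1 had the larger fall: by TPM it was 3.95 times ESRP2 at day 0, 2.52 times at day 9 and 1.32 times at day 90. The log2 ratio differed by -0.65 and -0.93 in these 2 comparisons (exact permutation test, p 0.0357 and adjusted p 0.0446 each).

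PTBP1, the repressor of muscle and neural exons, declined gradually. In the main fit it was called only in the long comparisons that end at day 90, while on TPM it was called lower by day 9. Means were 398 ± 35.6 CPM at day 0 (SD, n = 3), 366 ± 14.8 at day 5, 323 ± 10.3 at day 7 and 227 ± 20.9 at day 9 (SD, n = 5 each). The wells of days 5, 7 and 9 did not overlap, yet neither step between them was called, and day 9 against day 0 was -0.81 (SE 0.17, adjusted p 0.000138), under the fold threshold. Day 90 wells held 92.1, 67.4 and 63.9 CPM, a fall of 1.60 on the log2 scale from day 9 (SE 0.19, adjusted p 7.14e-09) and of 2.42 from day 0 (SE 0.20, adjusted p 1.44e-12). For day 30 the step from day 20 was -0.78 (SE 0.20, adjusted p 0.0194), and -1.24 without day 30 well 3 (adjusted p 4.35e-05), which called it. It was -0.45 (adjusted p 0.133) without day 30 well 10 and -0.49 (adjusted p 0.162) without the 4 shallow libraries.

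PTBP2 is the neural paralog, whose RNA PTBP1 is known to destabilise by exon skipping. PTBP1 was 4.03 times PTBP2 by TPM in pluripotent cells, 6.96 times at day 0, 4.01 times at day 9 and 1.58 times at day 90. The day 9 ratio was thus near that of pluripotent cells. The log2 ratio differed by -0.80 between day 9 and day 0 and by -1.35 between day 90 and day 9 (exact permutation test, p 0.0357 and adjusted p 0.0446 each).

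Per transcript length, the order of the members changed. At day 0 PTBP1 led with 97.1 ± 9.11 TPM, followed by ESRP1 with 28.6 ± 0.254 and RBFOX2 with 26.1 ± 1.36, and RBM24 and RBM20 were last with 0.42 ± 0.20 and 0.0900 ± 0.0436 (SD, n = 3 each). At day 9 RBFOX2, at 55.5 ± 27.7 TPM, and PTBP1, at 52.2 ± 30.3 (SD, n = 5 each), overlapped at the top, and RBM24 was next at 15.3 ± 6.91. At day 90 RBFOX2 and RBM24, at 29.8 ± 16.4 and 27.2 ± 14.8 TPM, overlapped at the top, and PTBP1 was next at 9.76 ± 1.80. The members from PTBP1 down to RBFOX1 each overlapped the next in order, and ESRP1, at 0.997 ± 0.101, and ESRP2, at 0.730 ± 0.0954, were last without overlapping each other (SD, n = 3 each). On scaled counts, RBM24 and ESRP2 each had 10 of 11 neighbouring pairs of groups overlapping when ordered by mean, so most neighbouring groups of these genes cannot be ordered.

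The wells of day 11 split as their markers did. RNA integrity scores were 8.6 and 8.0 in wells 1 and 2 and 9.2 to 9.5 in the others, and totals were 18014203 and 19060126 counts against 23631168 to 31323325. The part of these was not tested. RBM20 was 30.5 and 20.0 CPM in wells 1 and 2 and 88.6, 102 and 78.8 in wells 5, 6 and 7, and ESRP1 was 24.5 and 30.5 against 13.5, 10.7 and 11.7. RBM24 had 86.9 and 53.6 CPM against 108 to 138, and MBNL2, with 41.0 to 45.5 CPM in all 5, did not divide. RBM20 against day 9 was a log2 change of 0.41 (adjusted p 0.512) with all wells and 0.89 (adjusted p 0.0230) without wells 1 and 2. The fall of ESRP1 from day 9 was 1.17 on the log2 scale (SE 0.28, adjusted p 0.0116) with all wells, and the value was -1.78 (adjusted p 0.000303) without them. For RBM20, day 14 against day 11 was -0.53 (adjusted p 0.417) with them and -0.99 (adjusted p 0.0160) without.

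ESRP1 at day 20 was similarly uneven, with 8.52, 9.99 and 35.7 CPM. Well 3, the high one, held 4035 CPM of endoderm and liver markers against 1770 and 941 in the others, and their part in the ESRP1 level was not tested. The fall to day 30, at 5.70, 5.31 and 7.50 CPM, was 1.57 on the log2 scale (SE 0.37, adjusted p 0.0126), and the change was -0.49 (adjusted p 0.434) without day 20 well 3.

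Within groups, levels of these regulators went with those of marker genes. Over 44 wells, as deviations from the group means of log2 CPM, ESRP1 and 7 epithelial markers had Pearson's r of 0.52 and Spearman's rho of 0.50 (permutation within groups, adjusted p 0.00748 and 0.0117 over 4 relations). For ESRP2 and the same markers r was 0.66 and rho 0.53 (permutation, adjusted p 0.00769 and 0.0102). For RBM20 and 7 sarcomere markers r was 0.69 and rho 0.55 (permutation, adjusted p 0.00468 and 0.0102), and for RBM24 r was 0.41 and rho 0.32 (permutation, adjusted p 0.0266 and 0.0814). Without the 2 wells farthest from the median of the markers, r was 0.59, 0.62, 0.54 and 0.28, and the relation of RBM24 no longer held (permutation, adjusted p 0.160). The lowest epithelial marker deviations were in day 30 well 10 (-0.94), day 20 well 2 (-0.59) and day 14 well 2 (-0.53). These wells were under 15000000 counts, with RNA integrity scores of 7.4, 8.0 and 7.4. The other such well, day 14 well 6, had a score of 8.2 and was among the highest (0.62). The part of depth and RNA integrity in these relations was not tested. On TPM over all 44 wells, r was 0.81, 0.87, 0.79 and 0.62. However, TPM of unlike members shifted together between wells. At day 9, wells 3 and 4 held 77.2 and 91.9 TPM of RBFOX2, against 29.9 to 46.1 in the others. They held 85.8 and 83.6 TPM of PTBP1, against 25.0 to 40.4. A shared shift raises r between any genes, so the r on TPM add no support for these relations.

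By sequencing lane, with 8 to 10 wells each, RBM20 and sarcomere markers had r between 0.48 and 0.88 in all 5 lanes, and RBM24 between 0.14 and 0.81. ESRP1 and epithelial markers had r from 0.29 to 0.89 in 4 lanes and -0.38 in lane 5, and ESRP2 from 0.69 to 0.92 in 4 and -0.24 in lane 5. The epithelial relations therefore did not hold within lane 5.

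**Figure D4:**
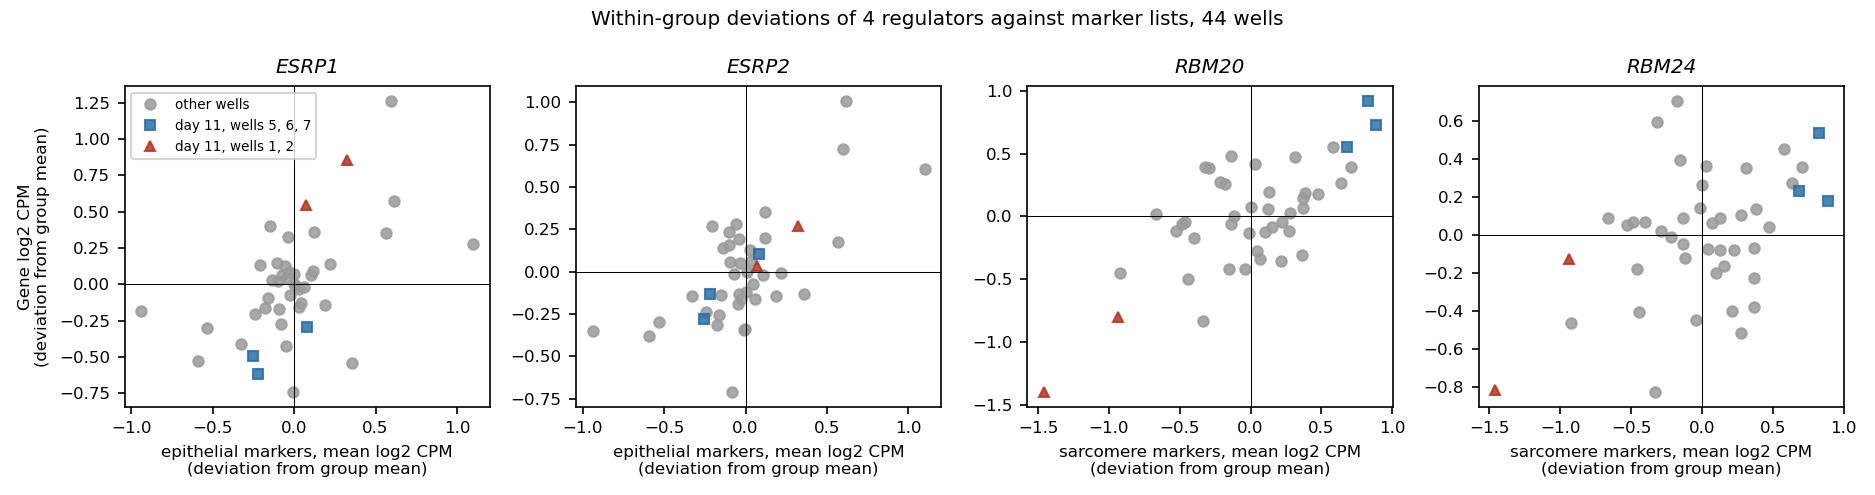
Deviation of each of 44 wells from its group mean, for 4 regulators (vertical) against the mean log2 CPM of a marker list (horizontal). The triangles, day 11 wells 1 and 2, are low in RBM20 and in sarcomere markers and high in ESRP1, and the squares are the other wells of day 11.

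The genes most like each member over the 44 libraries, by Pearson's r of log2 levels among 10387 genes, are given as a description, since all share the time course. MEIS2 and BMP5, with r of 0.98 and 0.97, were most like RBM20, and RBM24 followed at 0.97. TBX20, CAP2 and SMARCD3 (0.98 each) were most like RBM24. IGF2 (0.97) led for MBNL2, MPC1 (0.94) for MBNL1, FAM168A (0.91) for CELF2, SLC27A6 (0.91) for RBFOX1, LRRN4 (0.95) for RBFOX2 and SECISBP2 (0.97) for PTBP1. AP1M2 (0.98), an adaptor subunit of epithelial cells, led for ESRP1, and EPHA1 stood among the top 3 for both ESRP1 (0.97) and ESRP2 (0.95). CDH1, the epithelial cadherin, was among the top 3 for ESRP2 (0.95). Among the members, RBM20 and RBM24 had r of 0.97, ESRP1 and ESRP2 0.93, MBNL1 and MBNL2 0.67, and RBFOX1 and RBFOX2 0.44.

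Of 10 close paralogs of the members, 2 rose and 2 fell from day 0 to day 9, and 0 rose and 5 fell from day 9 to day 90, where 31.7% and 23.9% of all genes were called. The median log2 changes were 0.02 and -1.22, against 0.08 and -0.02 over all genes. MBNL3 rose by 2.18 (SE 0.69, adjusted p 0.00880) and RBM38, the paralog of RBM24 and a p53 target, by 1.88 (SE 0.34, adjusted p 1.49e-05) by day 9. RBFOX3, the neuronal antigen NeuN, changed by -2.11 (SE 0.71, adjusted p 0.0128) and CELF5 by -1.44 (SE 0.31, adjusted p 0.000234). From day 9 to day 90 RBFOX3 fell by a further 2.85 on the log2 scale (SE 0.96, adjusted p 0.0165), to 0.217 ± 0.145 CPM (SD, n = 3), and CELF3 by 2.07 (SE 0.79, adjusted p 0.0351), to 0.150 ± 0.162 CPM (SD, n = 3).

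Of 15 other tissue-restricted regulators, 2 rose and 4 fell by day 9, and 2 rose and 4 fell from day 9 to day 90, where 31.7% and 23.9% of all genes were called. The median log2 changes were -0.18 and -0.57. QKI, which also acts in muscle, went from 154 ± 11.7 CPM at day 0 (SD, n = 3) to 460 ± 71.8 at day 9 (SD, n = 5), a rise of 1.58 (SE 0.24, adjusted p 8.78e-07). A1CF, a cofactor of liver and gut RNA editing, was at 3 counts or fewer in each day 0 well and at least 157-fold higher at day 9 (15.9 ± 4.58 CPM, SD, n = 5), where the liver markers were also present, though their part in it was not tested. It then fell by 4.15 on the log2 scale to day 90 (SE 0.86, adjusted p 0.000174). The neuronal ELAVL3 and ELAVL2 changed by -4.79 (SE 0.76, adjusted p 2.12e-06) and -2.91 (SE 0.29, adjusted p 1.50e-10) by day 9. SRPK3, a muscle kinase of splicing factors, was at 3 counts or fewer in each day 9 well and at least 72.3-fold higher at day 90, at 8.08 ± 2.23 CPM (SD, n = 3). From day 9 to day 90 ELAVL2 rose by 1.13 (SE 0.29, adjusted p 0.00211) and ELAVL4 fell by 2.79 (SE 0.75, adjusted p 0.00290).

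Among 26 general factors (SR proteins, hnRNPs and parts of the spliceosome), 0 rose and 8 fell from day 0 to day 9, 0 rose and 3 fell from day 9 to day 90, and 0 rose and 14 fell over the whole course. Of all 22955 genes, 3344, 2746 and 4399 fell in these comparisons. The median log2 change of the list from day 0 to day 90 was -1.12, and 0.06 over all genes. HNRNPM, which antagonises ESRP1 on shared exons, fell most by day 9, from 212 ± 5.42 CPM (SD, n = 3) to 58.3 ± 9.01 (SD, n = 5), which is -1.86 on the log2 scale (SE 0.20, adjusted p 7.49e-10). HNRNPA2B1 changed by -1.40 (SE 0.24, adjusted p 8.80e-06). U2AF1, which has a near-identical copy in this genome build and is therefore uncertain, and SRSF9 fell most from day 9 to day 90, by 1.12 (SE 0.26, adjusted p 0.000610) and 1.08 (SE 0.19, adjusted p 1.15e-05) on the log2 scale.

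Genes whose splicing the members are known to control were read at the level of the whole gene. Of 8 RBM20 targets, 7 rose by day 9 and 7 from day 9 to day 90. Of all 22955 genes, 3934 and 2739 rose in these comparisons. LDB3 went from 0.822 ± 0.131 CPM (SD, n = 3) to 107 ± 26.8 (SD, n = 5) by day 9, a rise of 7.01 (SE 0.45, adjusted p 1.42e-15), and TTN, titin, rose by 6.03 (SE 0.64, adjusted p 6.67e-10). From day 9 to day 90 CACNA1C rose by 2.48 (SE 0.32, adjusted p 6.04e-08) and PDLIM3 by 2.47 (SE 0.51, adjusted p 0.000149). These are sarcomere and calcium-handling genes, and the summed sarcomere markers were higher at each of these days too. TTN overlaps TTN-AS1 on the other strand, so its counts are uncertain in part.

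For the short lists that follow, 31.7% of all genes were called by day 9 and 23.9% from day 9 to day 90. No ESRP target of the 4 listed passed both thresholds by day 9. FGFR2, a receptor with an epithelial and a mesenchymal exon, came closest, at -0.94 (SE 0.33, adjusted p 0.0157). From day 9 to day 90, 1 rose and 1 fell. CD44, a cell-surface receptor with epithelial variant exons, rose by 3.25 (SE 0.46, adjusted p 4.67e-07), from 6.68 ± 1.64 CPM (SD, n = 5) to 63.7 ± 13.1 (SD, n = 3), and FGFR2 fell by 1.63 (SE 0.36, adjusted p 0.000324). Of 5 MBNL and CELF targets, 2 rose by day 9, TNNT2 by 7.18 (SE 0.39, adjusted p 1.43e-17) and BIN1 by 2.10 (SE 0.21, adjusted p 2.05e-10). From day 9 to day 90, 2 of the 5 rose and 2 fell. TNNT2 rose by 1.65 (SE 0.26, adjusted p 3.24e-06), while BIN1 and ATP2A1 changed by -1.76 (SE 0.21, adjusted p 1.31e-08) and -1.36 (SE 0.32, adjusted p 0.000769). Of 3 PTBP1 targets, TPM1, tropomyosin, rose by 3.17 by day 9 (SE 0.29, adjusted p 1.62e-11) and by 1.04 from then to day 90 (SE 0.24, adjusted p 0.000705), and PKM, pyruvate kinase, changed by -1.11 by day 9 (SE 0.20, adjusted p 2.12e-05).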

How the data were processed

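Total RNA of 44 wells was sequenced as 150 bp paired reads from a stranded kit, per the labels' protocols. The submitters' processing notes name cutadapt, STAR 2.5.2b, RSEM 1.2.31 and hg38. Their roles, the annotation and the use of strand are not given in the sources used here. The authors deposited estimated counts per gene, of which 93.8% were whole numbers, and TPM. A deposited sample table gives an RNA integrity score (7.4 to 10), the lane (5 lanes) and batch 1 for every library. The score was 10 in every well of days 0 and 1, 7.4 to 9.8 at day 14, 8.0 to 9.3 at day 20 and 8.0 to 9.5 at day 90. Day 90 wells were in lanes 4 and 5 only, and wells of days 1 and 3 in lanes 1 to 3. The part of RNA integrity in comparisons of early with late days was not tested.

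Symbols came from GENCODE 29, in which 56769 of the 60499 identifiers were found. Estimated counts were rounded and filtered with filterByExpr, which left 22955 genes. They were scaled by TMM and fitted with edgeR 4.0.16 (R 4.3.3) with 1 mean per group over all 44 libraries, and 14 comparisons were taken from this fit. CPM are TMM-scaled. Ratios used TPM + 0.1 and two-sided exact permutation tests, adjusted over 10 tests. Relations used log2(CPM + 0.5), with 100000 permutations within groups. Alternatives were RLE scaling, DESeq2 1.42.0, no filter and a stricter one, limma 3.58.1 on log2(TPM + 1) and log2(TPM + 0.1), only the groups compared, a lane term, the replicate number as a block, other pseudocounts and leaving out each library. Omitting day 11 wells 1 and 2, or the 4 libraries under 15000000 counts, was added after seeing the data. The fit was tested on simulated data.

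The members and gene lists were chosen with earlier results of these data known. Members are named in every comparison. Of the other lists, at most 2 risers and 2 fallers, those that changed most among the called, are named for day 9 against day 0 and day 90 against day 9, and the epithelial markers and day 9 FGFR2 were added after their values were seen. TNNT2 is also a sarcomere marker. One called riser of the target lists is not reported here. The labels call the wells biological replicates without saying more, so p-values measure the spread between wells. Floors of 3 counts cover counting error only. Promoter windows of 7 members were found in a RefSeq table (GRCh38.p14).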

Additional observations from a re-analysis of the deposited data

Results flagged for a closer look

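RBFOX1 in day 5 well 4 was 1.43 CPM, while the other 4 wells of that day held 0.619 to 0.781 CPM. Its gap to the nearest well exceeded Dixon's 95% critical value for 5 samples. In all, 40 groups of wells were tested in this way (10 genes in the 4 groups with 5 wells) and this was the 1 that exceeded it, where chance alone gives about 1 in 20. That well had an RNA integrity score of 8.4, against 9.8 to 10 in the other wells of day 5, and the part of this was not tested. Each of the 5 wells was below the day 3 wells, which held 6.98 to 9.01 CPM.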

How the results depend on the processing

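Of 570 comparisons of a member's change with its value under another setting, 499 kept direction and call, 51 lost the call, 15 gained it and 5 reversed. The reversals were MBNL2 from day 9 to day 90 on TPM (-0.54 and -0.60 with pseudocounts of 1 and 0.1), RBM20 from day 11 to day 14 on TPM (0.28 and 0.34), and RBM20 from day 9 to day 11 with the replicate block (-0.22), none of which was a called change. The ratio of CELF2 to CELF1 from day 0 to day 9 reversed to 0.025 with a pseudocount of 1 (exact permutation test, adjusted p 0.893), and that of RBFOX2 to RBFOX1 passed the threshold there (0.83, adjusted p 0.0397). The relation of RBM24 to sarcomere markers had r of 0.28 without the 2 farthest libraries (permutation, adjusted p 0.160). The cause was not tested.

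On TPM, the members called were 0 for day 0, 5 for day 3, 0 for days 7, 9, 11 and 30, and 2 for day 90, each against the group before, and 3 for day 90 against day 9, with both pseudocounts. The 2 for day 90 were lower, RBM24 and MBNL2 with a pseudocount of 1 and RBM24 and RBFOX2 with 0.1. With 0.1, 0.282% of all genes were called for day 0, 11.8% for day 3 and 16.5% for day 90. For days 7, 9, 11 and 30 the shares were 2.01%, 0.309%, 0.0773% and 0.350%. With 1, they were 0.223% for day 0, 7.96% for day 3 and 6.62% for day 90. With a pseudocount of 1 the members called were 1 for day 1 (4.47% of all genes) and 3 for day 5 (4.90%). With 0.1 they were 2 for day 5 (7.92%). The step to day 30 called 2 members with RLE scaling (2.06% of all genes), the stricter filter (2.97%), DESeq2 (3.11%) and the replicate block (1.81%). It called 3 without a filter (1.05% of all genes) and without the 4 shallow libraries, and 0 with only the groups compared (0%). The step to day 11 called 0 with the replicate block (1.86% of all genes) and with only the groups compared (1.87%). The step to day 14 called 1 without day 11 wells 1 and 2, where 10.4% of all genes were called. Leaving out 1 library at a time gave 0 to 2 members for the step to day 7, 0 to 1 for day 11, 0 to 1 for day 14 and 0 to 3 for day 30. The shares of all genes in the fits without 1 library, or without the 4 shallow ones, are not given here.

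Ratios with 1 library left out cannot pass the threshold, since their smallest adjusted p is 0.0714. Their differences ran from -0.71 to -0.57 (day 9 against day 0) and -1.05 to -0.85 (day 90 against day 9) for ESRP1 over ESRP2, -2.41 to -2.16 and 1.70 to 1.83 for MBNL1 over MBNL2, and -0.93 to -0.66 and -1.49 to -1.19 for PTBP1 over PTBP2. For day 90 against day 9 they ran from 1.53 to 1.66 for CELF2 over CELF1 and -1.75 to -1.08 for RBFOX2 over RBFOX1.

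The main fit did not pair wells by replicate number, and the numbers went together in some comparisons only. From day 7 to day 9, same-numbered wells deviated with r from 0.0546 to 0.454 over 5 pairs, and 4 of 5 correlated best with their own number. Both pairs did so for day 20 with day 14 (r 0.553 to 0.611). The same held for day 14 with day 11 (0.102 to 0.342, 2 pairs) and day 90 with day 9 (0.0965 to 0.155, 2 pairs). For day 1 with day 0, 0 of 3 did (-0.0165 to 0.0146). Day 90 shares no number with day 30. With the block, RBFOX1 was not called from day 0 to day 9 (0.66, adjusted p 0.0648), and 7 members were called in place of 8. ESRP1 was then not called from day 3 to day 5 (-0.98, adjusted p 0.0399), and RBM20 stayed uncalled from day 20 to day 30 (adjusted p 0.0523). The spread between 3 to 5 wells limits what each step can show, and 4 of the 9 wells of days 14, 20 and 30 were under 15000000 counts.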
